A study of Rattus norvegicus with 2 samples.

Results

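The let-7, miR-99/100 and miR-125 families were followed in small RNA libraries from the left ventricle of Wistar rats. The 10 hairpins let-7a-2, let-7c-1, let-7e, let-7i, mir-99a, mir-99b, mir-100, mir-125a, mir-125b-1 and mir-125b-2 were taken by name from the 192 miRNA hairpin names in the deposited tables. The control library came from rats aged 16 weeks that were kept under ordinary conditions. The swim library came from rats of the same strain and age that swam for 90 minutes in each of 2 daily sessions over 8 weeks, a regimen used to produce physiological hypertrophy of the heart. Each condition was represented by 1 library, and how many animals gave RNA to it is not stated. All differences below are therefore between these libraries, with intervals that cover counting error only and no p-value.

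The let-7 miRNAs are among the most conserved animal miRNAs. They accumulate as tissues differentiate, and they are known for repressing growth and cell cycle transcripts and for being held back in early development by the RNA-binding protein LIN28. The miR-99/100 family is known for targeting transcripts of the mTOR growth pathway, and miR-125 is the vertebrate relative of lin-4, the first miRNA described in Caenorhabditis elegans. In vertebrates a miR-99/100 gene, a let-7 gene and a miR-125 gene lie together in clusters that are often made from a shared primary transcript, so their mature products start from the same RNA.

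The mature sequences are shown because the seed sets which targets a miRNA pairs with and because near-identical members may share reads. Of the 10 hairpins, 8 had a 5p mature entry in RefSeq's rat table (build GRCr8), mir-99a and mir-125b-1 being the others. The seed, bases 2 to 8 from the 5′ end, is in capitals:
let-7a-5p: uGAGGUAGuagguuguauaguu
let-7c-5p: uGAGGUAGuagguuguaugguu
let-7e-5p: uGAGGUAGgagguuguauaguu
let-7i-5p: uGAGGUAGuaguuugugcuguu
miR-99b-5p: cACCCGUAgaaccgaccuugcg
miR-100-5p: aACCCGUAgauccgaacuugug
miR-125a-5p: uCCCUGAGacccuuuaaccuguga
miR-125b-5p: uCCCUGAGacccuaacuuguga
miR-351-5p: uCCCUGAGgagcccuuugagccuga

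The sequences fell into 3 seed groups, 1 for each family. Counting positions from 1 at the 5′ end and giving the base of let-7a first, let-7c differed from let-7a only by A19G and let-7e only by U9G, both outside the seed. For let-7i there were 4 differences, G12U, A17G, U18C and A19U. Between miR-100 and miR-99b there were also 4, with the miR-100 base first, A1C, U11A, A16C and U21C. The 5p products of mir-125a and mir-125b had the same first 13 bases. As their lengths differ, the rest was not compared base by base. The lengths ran from 22 to 24 bases, and counts of different members were compared without a correction for length or sequence. An order of members below is therefore an order of counts, and may not be that of the amounts of RNA. The last sequence belongs to mir-351, the only other row of the tables whose RefSeq mature miRNA carried a member's seed. RefSeq also lists let-7b, let-7d, let-7f, let-7g and miR-98 with the let-7 seed, and the tables have no row under those names.

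In GRCr8 the hairpins of mir-99b, let-7e and mir-125a lie within 696 bases on chromosome 1, inside the gene Spaca6. The hairpins of mir-100, let-7a-2 and mir-125b-1 spread over 51.8 kb of chromosome 8 inside the annotated host Mir100hgl. Those of mir-99a, let-7c-1 and mir-125b-2 spread over 45.3 kb of chromosome 11, inside the non-coding gene LOC103693508. The let-7i hairpin stands alone on chromosome 7. The mature 5p products of let-7a-2 and mir-100 lie on the plus strand at chr8:50805219-50805240 and chr8:50798307-50798328, and that of mir-99b on the plus strand at chr1:67350070-67350091. RefSeq places miRNA genes on the opposite strand at let-7a-2 (Mir3596a), let-7e (Mir3596c) and mir-125b-2 (Mir3588), none of which has a row here. Whether reads were counted by strand was not stated in the labels. RefSeq lists the let-7a sequence at another locus besides let-7a-2, and the let-7c sequence at another besides let-7c-1. The rows let-7a-2 and let-7c-1 are the only rows of those miRNAs, so a row may hold reads made from both loci, and rows carry hairpin names that do not say which arm was read.

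The miRNA rows held 2460845 counts in control and 3219939 in swim. Cardiac muscle miRNAs were present in both libraries, the 6 listed ones summing to 70875 CPM (the count scaled to the library's miRNA total) in control against 89545 CPM in swim. The vascular smooth muscle pair mir-143 and mir-145 summed to 199692 CPM in control and 187599 in swim, the endothelial mir-126a had 37523 and 37987, and the leukocyte pair mir-142 and mir-150 had 2403 and 2038. The fibroblast list (mir-199a, mir-214 and mir-21) summed to 9652 CPM in control and 8847 CPM in swim. Of the red cell miRNAs only mir-144 had a row, with 29.3 CPM in control and 24.8 CPM in swim. Rows within the cardiac muscle, smooth muscle and fibroblast lists went both ways. The ratio of swim to control was 0.624 for mir-1 and 0.899 for mir-208a. It was 1.18 for mir-133a, which held most of the cardiac sum, 1.95 for mir-133b, 2.64 for mir-208b and 1.19 for mir-499. For mir-143 and mir-145 it was 0.936 and 1.32, and for mir-199a, mir-214 and mir-21 it was 1.25, 0.370 and 0.866. The tables are sorted in a first part of 81 rows by falling ratio and a second part of 122 rows by falling control count. Leaving let-7e aside, every entry of the first part had at least 838 counts in its higher library and no count of the second part exceeded 795. All members but let-7i stand in the first part, except that let-7e has a row in each. Over the 173 entries whose counts summed to 20 or more the median ratio of swim to control was 0.666, against 1.06 in the first part (75 entries) and 0.459 in the second (98 entries).

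The miR-99/100 family made up less of the swim library. Its rows summed to 15745 CPM, or 1.57% of the library, in control (exact binomial 95% bounds 1.56 to 1.59%) and to 10101 CPM, or 1.01% (0.999 to 1.02%), in swim, a ratio of 0.642 (95% exact conditional interval 0.632 to 0.651). The 3 members did not share this difference equally. In bulk ventricle fewer cells of a type and less RNA per cell cannot be told apart.

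The row mir-99b, from the chromosome 1 cluster, had the highest count of all members in the control library, with 22944 counts in control and 17349 in swim. This is 9324 CPM in control against 5388 CPM in swim, and the ratio was 0.578 (0.567 to 0.589). It was the 14th most abundant of 191 entries in control and the 19th in swim. The row mir-100, from the chromosome 8 cluster, had 9550 counts in control and 7842 in swim. At 3881 CPM in control and 2435 CPM in swim its ratio was 0.628 (0.609 to 0.647), and its rank went from 21 to 33. The row mir-99a, from the chromosome 11 cluster, had 6253 counts in control and 7334 in swim, or 2541 CPM and 2278 CPM. Its ratio was 0.896 (0.867 to 0.927), an interval that lies above those of both relatives. In control mir-100 had 1.53 times the counts of mir-99a (1.48 to 1.58), and in swim 1.07 times (1.04 to 1.10), so the counts of the pair lay close together in swim.

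Placed among the 75 first-part entries by falling ratio, mir-99b stood 74th and mir-100 stood 72nd. The place between them was held by mir-1, a muscle miRNA with a ratio of 0.624 (0.593 to 0.658), and below mir-99b stood mir-301a at 0.424 (0.378 to 0.476), which was chosen after its value was seen. Each of mir-99b and mir-100 had fewer raw counts in the swim library although that library was the deeper. Their ratios stayed below 1 under each scaling tried. With median-of-ratios factors they were 0.872 and 0.947, with the TMM factors of edgeR 0.713 and 0.774, and with unscaled counts 0.756 and 0.821. For mir-99a the ratio was 1.35, 1.11 and 1.17 under the same scalings, so its direction rests on the scaling. Unscaled counts leave in the greater depth of the swim library, which alone puts a row of equal share above 1.

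**Figure D1:**
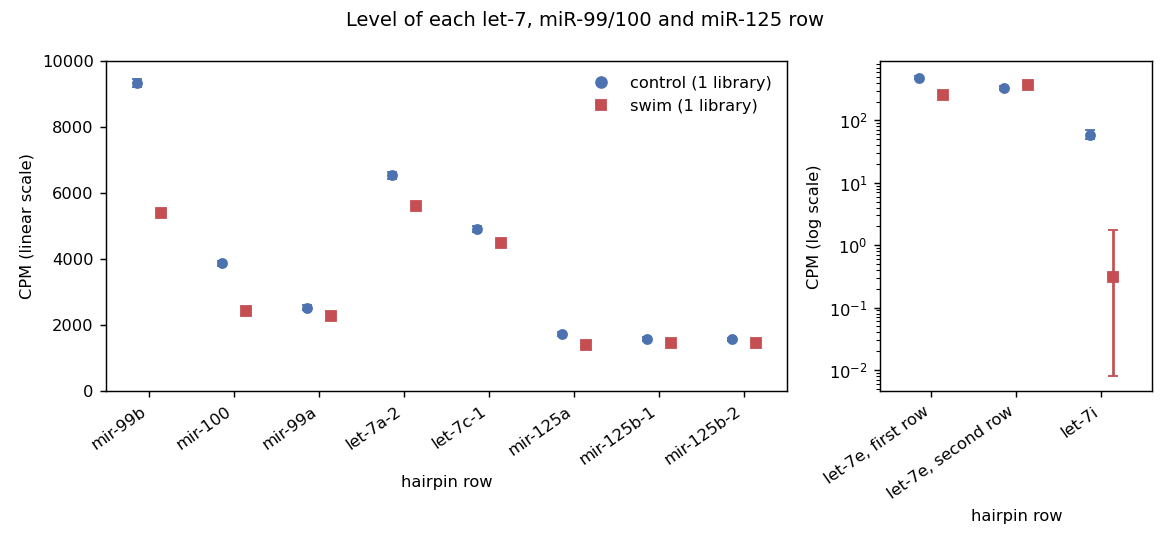
Level of each row in CPM in the control library (blue circles) and the swim library (red squares), on a linear axis at left and on a log axis at right for let-7e and let-7i. Bars are 95% Poisson intervals of the counts, mostly smaller than the symbols, and the widest gaps in the left panel are those of mir-99b (9324 and 5388 CPM) and mir-100 (3881 and 2435 CPM).

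The let-7 rows had ratios closer to 1, apart from let-7i. Summed over let-7a-2, let-7c-1 and let-7i, the family held 1.15% of the control counts (1.14 to 1.17%) and 1.01% of the swim counts (0.998 to 1.02%), a ratio of 0.876 (0.862 to 0.890). The row let-7a-2 had 16096 counts in control and 18063 in swim, or 6541 CPM and 5610 CPM, with a ratio of 0.858 (0.840 to 0.876). Its near-identical relative let-7c-1 had 12119 counts in control and 14431 in swim, or 4925 CPM and 4482 CPM, with a ratio of 0.910 (0.888 to 0.932). Together they made up nearly all of the listed let-7 counts, let-7a-2 with 56.8% in control (56.2 to 57.3%) and 55.6% in swim (55.0 to 56.1%). Both ratios lie above 1 under median-of-ratios factors (1.29 and 1.37) and TMM factors (1.06 and 1.12). Unscaled counts gave 1.12 and 1.19 with the swim library's greater depth left in.

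The row let-7i stood apart. It was listed at 145 counts in control (95% Poisson interval 122 to 171) and at 1 in swim (0.0253 to 5.57), which is 58.9 CPM and 0.311 CPM. The ratio was 0.00527 (0.000133 to 0.0298). In the swim library 16 of the 191 entries are listed at 1 and the next lowest value is 5, so the value of 1 may be a placeholder and the size of this ratio rests on it. It stayed a lower call under the 5 other scalings and relative to the median of its own part of the table, where the ratio was 0.0115 (0.000289 to 0.0650). These settings shift the ratio too little to undo the call, and they cannot show whether the 1 is a measured count. As let-7i made up 0.511% of the listed let-7 counts in control (0.432 to 0.601%), the family's sum hardly depends on it.

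The counts of let-7e cannot be assigned to a direction. The name has an unmarked row in each part of the table. The row in the first part lists 1193 counts in control and 821 in swim, and the row in the second part lists 821 in control and 1193 in swim. Each row fits the sort order of the part it stands in. The swim count of 1193 lies above every other count of the second part. No ratio is given, and under either reading let-7e stands below every other member except let-7i in both libraries.

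The miR-125 family held 0.332% of the control counts (0.325 to 0.340%) and 0.286% of the swim counts (0.280 to 0.292%) with mir-125b counted once, a ratio of 0.861 (0.835 to 0.887). The row mir-125a had 4283 counts in control and 4498 in swim, or 1740 CPM and 1397 CPM, with a ratio of 0.803 (0.770 to 0.837). The mir-125b copies had nearly equal counts in each library, mir-125b-1 with 3898 and mir-125b-2 with 3890 in control, and 4714 and 4718 in swim. As their mature 5p product is the same miRNA, the same reads appear to stand in both rows, and mir-125b was read from mir-125b-1. Scaled, it had 1584 CPM in control against 1464 CPM in swim, with a ratio of 0.924 (0.886 to 0.965). The order of the pair turned over: mir-125a had 1.10 times the counts of mir-125b in control (1.05 to 1.15) and 0.954 times in swim (0.916 to 0.994). With median-of-ratios factors the ratios were 1.21 for mir-125a and 1.40 for mir-125b, and with TMM factors 0.990 and 1.14. Unscaled counts, with the depth difference left in, gave 1.05 and 1.21. The row mir-351, which shares their seed, had 1798 counts in control and 1795 in swim, or 731 CPM and 557 CPM, with a ratio of 0.763 (0.714 to 0.815).

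**Figure D2:**
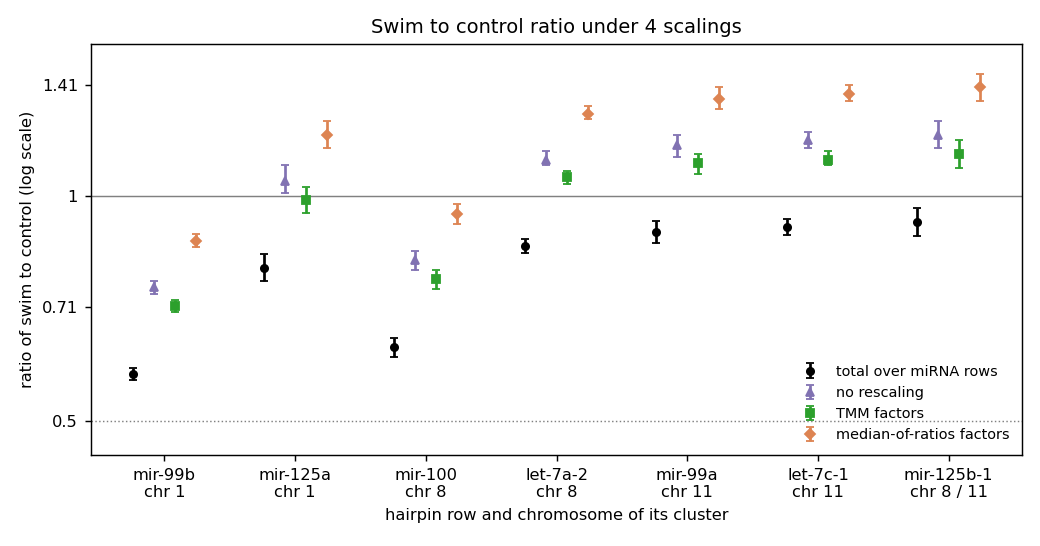
Ratio of swim to control (log axis) for 7 rows, with 95% exact conditional intervals as bars. Scalings are the total over miRNA rows (black), unscaled counts with library depth not removed (violet), TMM factors (green) and median-of-ratios factors (orange). The solid line marks 1 and the dotted line 0.5. The rows mir-99b and mir-100 lie below 1 under all 4 scalings, while the other 5 cross 1 under median-of-ratios factors (let-7i, at 0.00527, is outside the axis and not drawn).

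Ordered by control count, the members ran from mir-99b through let-7a-2, let-7c-1, mir-100, mir-99a, mir-125a and mir-125b to let-7e and let-7i. In swim let-7a-2 was first, as mir-99b had 1.43 times its counts in control (1.40 to 1.45) and 0.960 times in swim (0.941 to 0.981). Taking reads as independent, neighbours in both orders differed beyond counting error in each library. The closest pairs were mir-125a with mir-125b and, in swim, let-7a-2 with mir-99b. Spread between animals could not be set beside these gaps.

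A call of higher or lower was given where the log2 ratio, with 0.5 added to each count, was at least 1 in size (2-fold) and the interval excluded 1. Of the 8 members with a ratio, mir-125b being counted once, 1 was lower (let-7i) and 0 were higher, beside 32.9% lower and 3.47% higher among the 173 entries tested. By part of the table, 1 of 75 first-part entries and 56 of 98 second-part entries were lower, and 5 and 1 were higher. The row let-7i stands in the second part and the other 7 in the first. With median-of-ratios factors the calls over all entries split into 26 lower and 18 higher, with TMM factors into 31 and 11, and with unscaled counts into 30 and 12, in place of 57 and 6. The members' calls did not change under these scalings. With a 1.5-fold rule 3 of the 8 were lower (let-7i, mir-99b and mir-100), beside 47.4% lower among all 173 entries under that rule. That share pools both parts of the table, with median ratios of 1.06 in the first and 0.459 in the second. In the first part, mir-99b and mir-100 stood 74th and 72nd of 75 by falling ratio. A 95% interval wholly below 1 was found for 8 of the 8, beside 62.4% of all 173 entries and 37.3% of the 75 first-part entries, 7 of the 8 standing in that part. Ratios below 1 were left for 3 of the 8 members with median-of-ratios factors or unscaled counts and for 4 with TMM factors. Over all entries the median log2 ratio was 0.01 with median-of-ratios factors, -0.20 with unscaled counts and -0.28 with TMM factors. Ratios below 1 were thus common among all entries too. The members' median log2 ratio was -0.27, against -0.59 over all entries tested and 0.09 over the first part. It was 0.32 with median-of-ratios factors, which raise every log2 ratio by 0.59. The median over the 7 first-part members was -0.22.

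**Figure D3:**
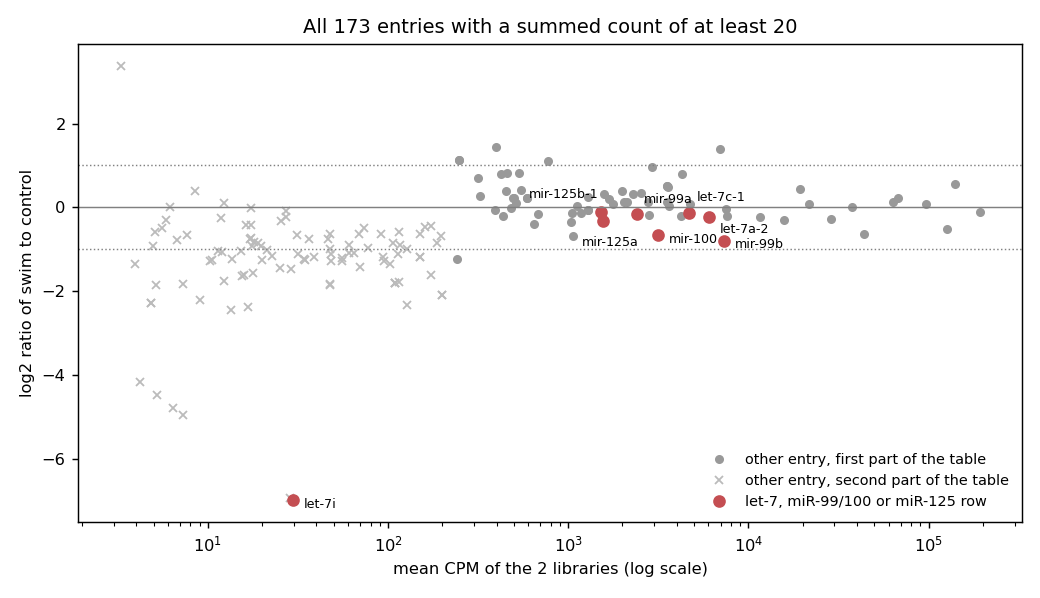
Log2 ratio of swim to control against the mean level of both libraries (CPM, log axis) for the 173 entries tested, except mir-125b-2. That copy row is not drawn. First-part entries are grey circles, second-part entries are crosses and the 8 measurements of the let-7, miR-99/100 and miR-125 families are in red. The dotted lines mark 2-fold, and apart from let-7i at -6.99 the red points lie between 0 and -0.79.

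A comparison of rows inside a library does not depend on the scaling, and by it the rows of the chromosome 11 cluster kept nearly the same proportions in both libraries. The count ratio of mir-99a to let-7c-1 was 0.516 in control (0.50 to 0.532) and 0.508 in swim (0.494 to 0.523), a change of 0.985-fold with a Wald 95% interval of 0.945 to 1.03. Against mir-125b-2, mir-99a changed 0.967-fold (0.916 to 1.02) and let-7c-1 changed 0.982-fold (0.935 to 1.03). All 3 intervals hold 1, with the limits that mir-125b cannot be split between its copies and that the bounds allow changes of several percent. The let-7c-1 row may also hold reads from the other let-7c locus.

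The rows of the other clusters went apart. On chromosome 1, mir-99b had 5.36 times the counts of mir-125a in control (5.18 to 5.54) and 3.86 times in swim (3.73 to 3.99), a change of 0.720-fold (0.687 to 0.754). On chromosome 8, mir-100 had 0.593 times the counts of let-7a-2 in control (0.578 to 0.609) and 0.434 times in swim (0.423 to 0.446), a change of 0.732-fold (0.705 to 0.759). Against mir-125b-1 of the same cluster mir-100 changed 0.679-fold (0.645 to 0.715), and mir-125b-1 against let-7a-2 changed 1.08-fold (1.03 to 1.13). On chromosome 1 this covers the pair mir-99b and mir-125a only, since let-7e, with its swapped rows, could not be placed against them. By the first let-7e row (485 CPM in control, 255 in swim) let-7e would be the lowest of that cluster in swim relative to control, and by the second (334 and 371 CPM) it would not. On chromosome 8 the let-7a-2 and mir-125b-1 rows may hold reads from other loci, so rows and not that cluster's products alone are compared.

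Across families the same rows stood out, as each change is the quotient of both rows' own ratios given above and restates them without the scaling. Of the 21 pairs that can be formed without let-7i, 18 had a change whose interval excluded 1. Such intervals were narrow at these counts, and pairs of other entries were not computed. Of the 75 first-part entries, 28 had a ratio interval below 1 and 40 had one above 1. The row mir-99b was lower in swim against all 6 partners, from 0.625-fold against mir-125b (0.597 to 0.655) to 0.921-fold against mir-100 (0.888 to 0.954). The row mir-100 was lower against the 5 partners other than mir-99b, from 0.679-fold against mir-125b to 0.782-fold against mir-125a (0.743 to 0.823). The pairs whose interval held 1 were mir-99a with let-7c-1, mir-99a with mir-125b and mir-125b with let-7c-1. Within families, mir-99b changed 0.645-fold against mir-99a (0.620 to 0.670), mir-100 changed 0.700-fold against mir-99a (0.669 to 0.732), mir-125a changed 0.868-fold against mir-125b (0.818 to 0.922) and let-7a-2 changed 0.942-fold against let-7c-1 (0.913 to 0.973). In the make-up of the miR-99/100 family the share of mir-99b was 59.2% in control (58.7 to 59.7%) and 53.3% in swim (52.8 to 53.9%), and that of mir-99a was 16.1% (15.8 to 16.5%) and 22.5% (22.1 to 23.0%). The share of mir-100 was 24.6% (24.2 to 25.1%) and 24.1% (23.6 to 24.6%), intervals that overlap.

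**Figure D4:**
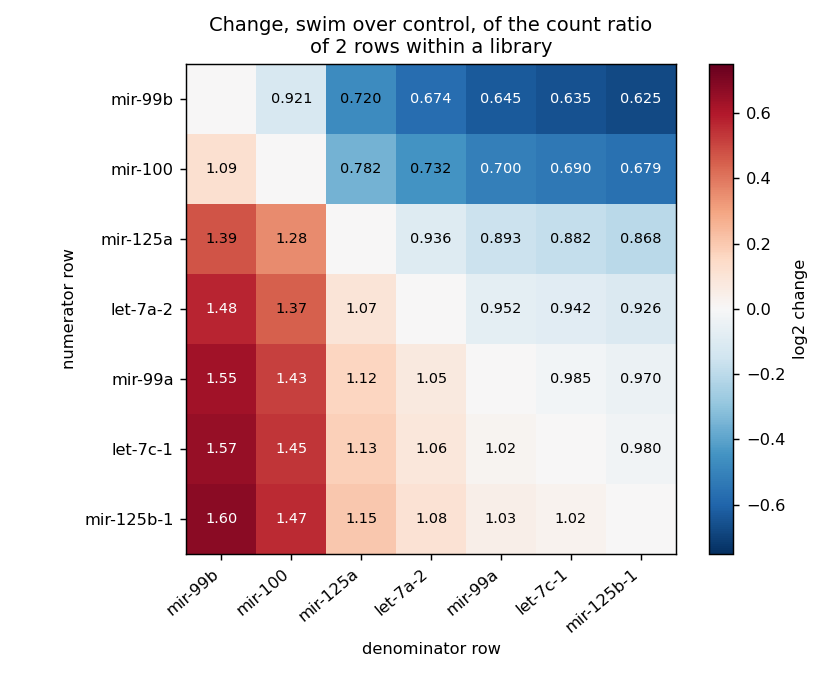
Change, swim over control, of the count ratio of the row at left to the row below within a library, for 7 rows, with colour giving the log2 change. The rows mir-99b and mir-100 are lower against the 5 others (0.625 to 0.782), and mir-99a, let-7c-1 and mir-125b-1 differ from each other by changes of 0.970 to 1.03.

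Of the like groups of clustered or related miRNAs, the miR-23/27/24 clusters had 6 entries with ratios from 0.828 to 1.08 and a median log2 ratio of -0.18, and the 6 miR-30 entries ran from 0.847 to 1.73 with a median of 0.51. Copy rows with equal or nearly equal counts (mir-24-1 with mir-24-2, mir-30c-1 with mir-30c-2) were counted separately here and over all entries. Among the members mir-125b was counted once. The ratios of mir-99b and mir-100, with their intervals, lay below the range of both groups. That of mir-125a, 0.803, also lay below both, though its upper bound of 0.837 reached the range of the first, and those of mir-99a, let-7a-2, let-7c-1 and mir-125b lay inside both. The 3 other entries, of those summing to 1000 or more counts, whose log2 ratio, over these 2 libraries, lay nearest to the members' median were mir-27b at 0.828 (0.820 to 0.836), mir-30d at 0.847 (0.834 to 0.860) and mir-181a-1 at 0.811 (0.801 to 0.822).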

How the data were processed

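Small RNA from 1 control and 1 swim library was sequenced on a HiSeq instrument after miRNeasy extraction, per the series' design text and the labels' protocols. The authors deposited 1 table of counts per hairpin row for each library; the values are whole numbers and were read as unscaled counts. Bowtie 0.12.2 and the builds rn5 and rn4 are named, without a role, per the submitters' processing notes. Trimming and the rule for reads matching several hairpins were not stated there.

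Each table had 203 rows. The row Others (5.41% of control and 12.5% of swim counts) and 9 asterisk rows that repeat an unmarked row were left out. Totals were taken over the other 193 rows, and 191 entries had a ratio. Ratios and count ratios within a library carry exact conditional binomial (Clopper-Pearson) intervals, changes of count ratios Wald intervals on the log scale, all at 95%. Intervals cover counting error only and treat reads as independent. Reads amplified without molecular identifiers are not, so the intervals may be too narrow even for counting error. The call rule took entries summing to 20 or more counts. Named were all members, rows sharing a seed, the miR-23/27/24 and miR-30 entries, and the 3 nearest entries. The marker mir-133a-1 was read from the row mir-133a. Members and lists were chosen with earlier results of these data known. The ratio rule was tested on simulated data. Python 3.11.15, SciPy 1.17.1 and edgeR 4.0.16 (TMM factors only) were used. Alternatives were other scalings, pseudocounts, filters and size rules, and the handling of mir-125b and let-7i.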

Additional observations from a re-analysis of the deposited data

How the results depend on the processing

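The members' median log2 ratio of -0.27 changed sign to 0.32 with median-of-ratios factors and 0.03 with TMM factors. Without rescaling it was 0.12, with the swim library's greater depth left in. It was -0.22 with let-7i left out or with both mir-125b rows kept. Relative to the median of each entry's own part of the table, a setting chosen after seeing the data, it was -0.36 and 22 of all entries were called, 11 in each direction. The number of members called rose from 1 to 3 with a 1.5-fold rule, the added ones being mir-99b and mir-100, beside 47.4% of all 173 entries lower under that rule, and was 1 in every other setting tried. The 47.4% pools both parts of the table. Over all entries 63 were called, 41 when only entries summing to 100 or more counts entered, and 27 with a 3-fold rule. A pseudocount of 5 moved the log2 ratio of let-7i from -6.99 to -5.03. Reading mir-125b from the mir-125b-2 row moved 0 of 7 count ratio changes beyond their intervals. As the copies had nearly equal counts, this setting could not move them far. Why scalings differ in direction was not tested. No paired analysis was possible because each condition had 1 library, and for the same reason no replicate could be left out. The listed value of 1 sets what can be said of let-7i.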
